A study of Mus musculus with 12 samples.

Results

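The interferon-stimulated genes examined here are 34 mouse genes of the type I interferon response, taken by name from a fixed list out of the 46078 genes of the count table. All 34 were found by their GENCODE symbol, and all 34 passed the low-count filter in every comparison. They were measured by RNA sequencing of B cells from the spleens of C57BL/6 mice aged 8 to 12 weeks. The study's design names the controls by the Cre recombinase VAVcre, while the genotype entry of their libraries reads WT, so whether they carried the Cre is not settled by the labels. The CKO (conditional knockout) mice were VAVcre-Zbtb24. Zbtb24 encodes a zinc finger transcription factor that is mutated in some patients with ICF syndrome, an inherited immunodeficiency. The Vav promoter is active throughout the blood lineages, so the deletion is not limited to B cells. Follicular (FO) B cells, which recirculate through lymphoid follicles, and marginal zone (MZ) B cells, which sit at the edge of the white pulp and respond early to blood-borne antigens, were separated with a magnetic isolation kit. The 4 groups, FO and MZ Control and FO and MZ CKO, held 3 libraries each. The labels name 6 animals, each with 1 FO and 1 MZ library, and libraries with the same animal number were taken to come from 1 mouse. Values are listed below in the order of replicates 1 to 3, which are mice 1505, 1507 and 2003 in the control groups and mice 1512, 1514 and 2002 in the CKO groups.

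The libraries held 36340116 to 44629250 counts in genes, of which the 34 genes took 66399 to 102862 counts, or 0.161 to 0.256%. Zbtb24 itself was at 61.4 ± 0.73 CPM (the count scaled to library depth, mean ± SD, n = 3) in control and 48.5 ± 1.42 CPM in CKO libraries of FO B cells, and at 52.2 ± 2.74 and 43.2 ± 2.61 CPM in the MZ groups. The groups did not overlap, and a count over the whole gene can hold reads from outside the deleted part. Cdca7, whose expression is known to depend on ZBTB24, was at 32.6 ± 1.23 CPM in FO controls and 1.40 ± 1.10 CPM in FO CKO, and at 36.5 ± 5.38 against 3.32 ± 1.81 CPM in MZ B cells. Its groups did not overlap, yet neither gene passed the test over all genes (Cdca7 adjusted p = 0.564 and 0.291, Zbtb24 adjusted p = 0.194 and 1, edgeR quasi-likelihood). The identity of the cells was checked on marker genes. All 9 MZ B cell markers were higher and all 8 FO B cell markers lower in MZ than in FO libraries of both genotypes.

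Type I interferons signal through the receptor IFNAR and the kinases JAK1 and TYK2 to a complex with STAT2 and IRF9, which binds the interferon-stimulated response element (ISRE) in promoters and switches on a large set of antiviral genes. Interferon gamma acts on promoters through the gamma-activated site (GAS), and several of the same genes answer to it as well. In resting B cells a low tonic interferon signal keeps many of these genes transcribed without infection.

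The promoters of 5 genes that the results turn on are shown first, because they differ in exact matches to the core of the response element. These are the 250 bases before the RefSeq start site on build GRCm38.p6, read 5′ to 3′ on the strand of the gene, with matches to the ISRE core GAAANNGAAA or the GAS core TTCNNNGAA (searched on both strands) in capitals.
Isg15, chr4:156200819-156201068, minus strand: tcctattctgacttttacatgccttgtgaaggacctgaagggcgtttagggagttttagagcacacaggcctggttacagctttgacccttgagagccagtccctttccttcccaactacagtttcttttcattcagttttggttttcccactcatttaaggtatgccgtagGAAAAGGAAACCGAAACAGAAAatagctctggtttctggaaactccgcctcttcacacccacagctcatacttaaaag
Oas1a, chr5:120907526-120907775, minus strand: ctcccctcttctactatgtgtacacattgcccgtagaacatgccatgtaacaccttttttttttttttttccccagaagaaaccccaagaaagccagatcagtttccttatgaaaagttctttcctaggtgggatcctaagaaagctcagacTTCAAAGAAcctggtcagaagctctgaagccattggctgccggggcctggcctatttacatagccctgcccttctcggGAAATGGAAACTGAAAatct
Gbp3, chr3:142559794-142560043, plus strand: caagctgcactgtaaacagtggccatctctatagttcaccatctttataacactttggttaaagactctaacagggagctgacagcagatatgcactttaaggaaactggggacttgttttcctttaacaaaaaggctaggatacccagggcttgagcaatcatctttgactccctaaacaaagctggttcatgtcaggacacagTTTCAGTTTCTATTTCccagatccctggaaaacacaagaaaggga
Gbp2b, chr3:142594597-142594846, plus strand: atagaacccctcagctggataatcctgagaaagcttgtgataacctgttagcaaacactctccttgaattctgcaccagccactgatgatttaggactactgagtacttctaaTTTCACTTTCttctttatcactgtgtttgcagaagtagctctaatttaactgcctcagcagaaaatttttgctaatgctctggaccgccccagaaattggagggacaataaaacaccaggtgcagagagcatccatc
Ifi44, chr3:151749911-151750160, minus strand: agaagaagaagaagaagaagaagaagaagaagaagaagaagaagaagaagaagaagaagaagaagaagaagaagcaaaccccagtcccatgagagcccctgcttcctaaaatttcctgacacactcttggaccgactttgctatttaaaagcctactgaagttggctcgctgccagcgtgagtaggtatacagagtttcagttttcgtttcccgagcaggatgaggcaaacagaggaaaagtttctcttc
RefSeq windows of 300 bases (250 before to 50 after a start) were found for 25 of the 34 genes, and 17 of these 25 (68%) held at least 1 ISRE core, against 3.99% of all 27025 genes with a window. The GAS core was found for 4 of 25 (16%), Oas1a, Ifit2, Eif2ak2 and Bst2, against 9.55% of all genes. Matches to the ISRE core overlapped each other in Isg15 (starting 78, 72 and 66 bases before the start site), Oas1a (20 and 14 bases before), Gbp3 (45 and 39, in 1 of its 2 windows, the one shown), Irgm1 (30 and 24) and Bst2, where the GAS core also overlapped one of them. Gbp2b held 1 ISRE core, 137 bases before its start. No match was found in the Ifi44 window, and the windows of Irf7, Irf9, Oasl1, Oasl2, Ifit2, Xaf1 and Dtx3l held no ISRE core. Only exact matches to these cores were searched, so a window without one, such as that of Ifi44, can still hold a near match. A match or its absence in these windows is a description of the letters only.

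Levels were compared between genes per kilobase of exon. The highest was Trim30a, a ubiquitin ligase gene of the tripartite motif family, with a mean of 40.2 CPM per kb over the 12 libraries, followed by Irf9 (38.4) and Gbp3 (29.3). Trim30a held 143, 127 and 166 CPM in FO controls, 127, 190 and 166 CPM in FO CKO, 168, 161 and 181 CPM in MZ Control and 168, 203 and 182 CPM in MZ CKO libraries. The lowest was Cxcl10, which encodes a chemokine for activated T cells, at 0.215 CPM per kb. Its counts gave 0.421, 0.240 and 0.611 CPM in FO controls, 0.360, 0.834 and 0.575 CPM in FO CKO, 0.236, 0.363 and 0.253 CPM in MZ Control and 0.396, 1.32 and 0.193 CPM in MZ CKO libraries. Ifi44 (0.661 CPM per kb) and Gbp2b (1.62 CPM per kb) stood just above it in the mean. In the plot of level per length these 3 have the lowest means, and the means of the other 31 ranged from 2.05 (Oasl2) to 40.2 CPM per kb. Among all genes tested, the 34 lay between the 11.1 percentile (Cxcl10) and the 93.7 percentile (Trim30a) of level per length.

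**Figure D1:**
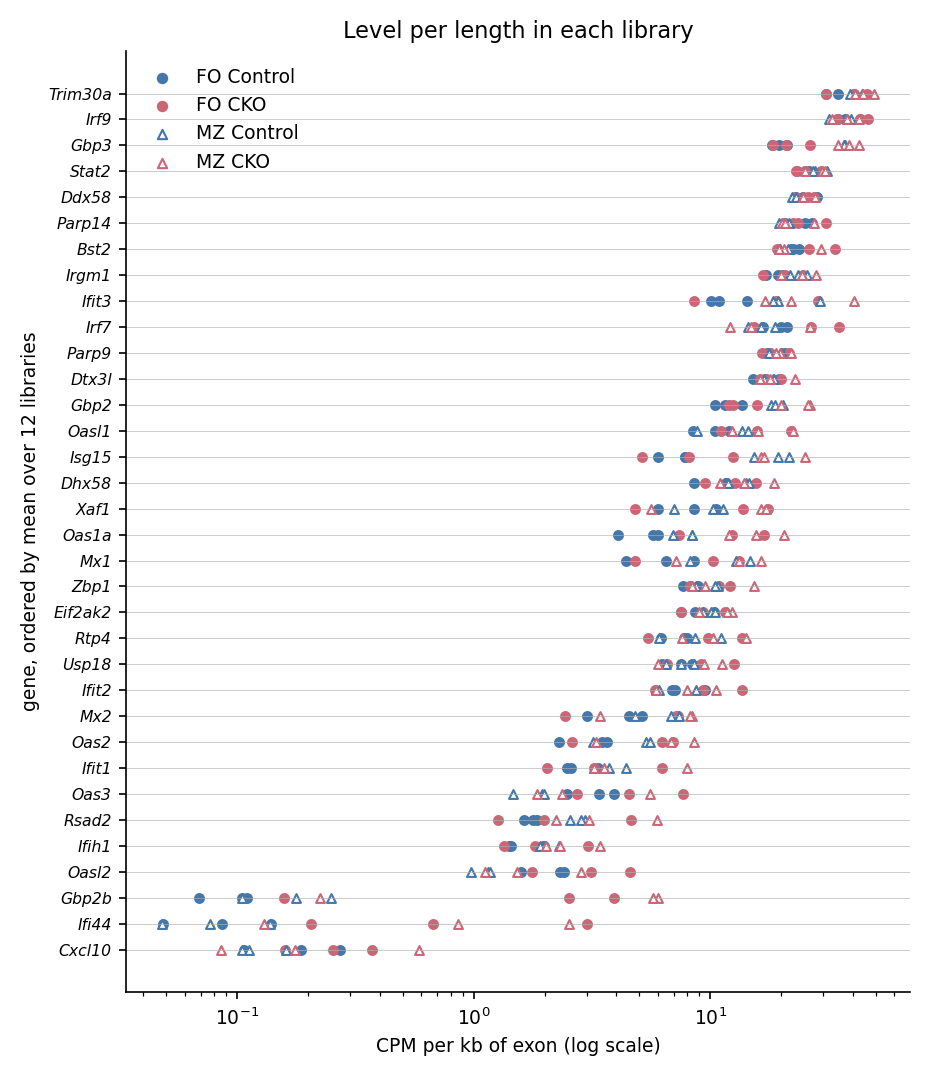
Level of each interferon-stimulated gene in CPM per kb of exon (x axis, log scale), 1 point per library, genes ordered by the mean over 12 libraries. Filled circles are FO and open triangles MZ libraries, blue is control and red is CKO. Trim30a is at the top (mean 40.2) and Cxcl10 at the bottom (mean 0.215), and the points of Gbp2b and Ifi44 fall into low and high libraries.

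The first comparison asked whether loss of Zbtb24 changed these genes in FO B cells. None of the 34 passed (edgeR quasi-likelihood test, adjusted p under 0.05 over all genes tested), against 0.09% of the 17777 genes tested. Of the 34, 4 had an unadjusted p under 0.05 (Oas1a, Gbp2b, Ifi44 and Zbp1), against 4.03% of all genes tested. limma-voom also called none and DESeq2 called 1, Gbp2b (adjusted p = 0.0227), against 0.25% of all genes in DESeq2. All 34 fold changes were nevertheless above 0, with a median log2 fold change of 0.36 against 0.01 over all genes tested. Only 3 genes had every CKO library above every control library, Oas1a, Gbp2b and Ifi44, where 4.78% of all genes tested did so, and none had every CKO library below, where 4.48% of all genes did. In such bulk samples a change in the number of cells of a type and a change in RNA per cell cannot be told apart.

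In MZ B cells again none of the 34 passed (edgeR), against 0.0793% of 17658 genes tested, and 4 had an unadjusted p under 0.05 (Oas1a, Gbp2, Gbp2b and Ifi44), against 2.9% of all genes. limma-voom called none and DESeq2 called 1, Oas1a (adjusted p = 2.65e-06), against 0.201% of all genes in DESeq2. Of the 34 fold changes 33 were above 0, with a median log2 of 0.22 against 0 over all genes, and Stat2 was at -0.01. Oas1a and Ddx58 had no overlap between groups with CKO higher, against 3.25% of all genes, and no gene had CKO lower without overlap, against 4.3%. With the counts of both cell types summed per mouse, none of the 34 passed, against 0.0817% of 19579 genes, the median log2 was 0.28 (0.01 over all genes), and 4 had an unadjusted p under 0.05 (Oas1a, Gbp2b, Gbp2 and Ifi44), against 3.59% of all genes. In these sums DESeq2 called Oas1a and Gbp2b, against 0.195% of all genes, and limma-voom called none. In the same sums 3 genes (Oas1a, Gbp2b, Ifi44) were higher without overlap against 3.98% of all genes, and none was lower against 4.19%. The FO and MZ libraries share their mice, so the 2 cell types are not independent samples.

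The size of these medians rested mainly on 1 mouse. CKO mouse 1514 had the highest value of the 6 FO libraries for 30 of the 34 genes and the highest of the 6 MZ libraries for 29 of 34, whereas it was the highest for 16.9% and 19.9% of all genes tested. Its log2(CPM + 1) exceeded the control mean for 34 of 34 genes in FO (median difference 0.74) and 33 of 34 in MZ B cells (median 0.59). CKO mouse 1512 lay below the control mean for most genes, with 5 of 34 above it in FO (median -0.18) and 12 of 34 in MZ (median -0.14). CKO mouse 2002 was between them, with 31 of 34 above in FO (median 0.23) and 26 of 34 in MZ (median 0.12). Without mouse 1514, the median log2 fold change of the 34 genes was 0.07 in FO, 0.04 in MZ and 0.02 in the sums per mouse. Without mouse 1512 it was 0.58, 0.36 and 0.53.

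**Figure D2:**
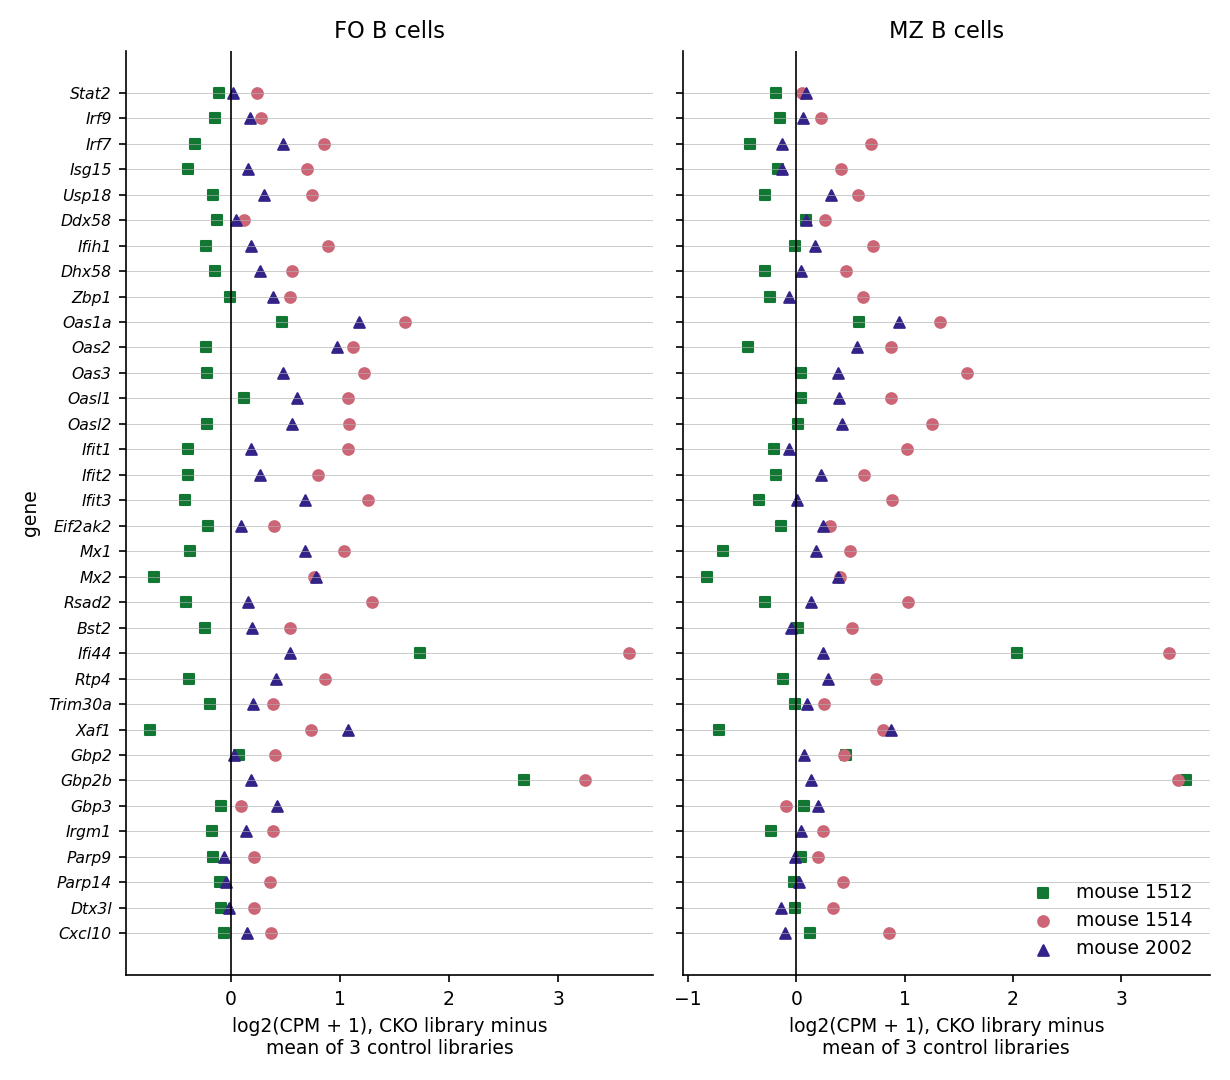
Difference between each CKO library and the mean of the 3 control libraries of its cell type, in log2(CPM + 1), for each of the 34 genes (left FO, right MZ B cells). Mouse 1514 (circles) lies to the right of 0 for 34 genes in FO and 33 in MZ, mouse 1512 (squares) lies to the left of 0 for most genes, and Gbp2b and Ifi44 stand far to the right in mice 1512 and 1514.

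The spread between CKO mice was accordingly wide. The SD of log2(CPM + 1) had a median over the 34 genes of 0.19 in FO Control and 0.16 in MZ Control, and of 0.51 in FO CKO and 0.41 in MZ CKO (all genes tested: 0.11 to 0.13). As a single number per library, the mean log2(CPM + 1) of the 34 genes was 4.76, 4.56 and 4.88 in FO Control and 4.66, 5.59 and 5.08 in FO CKO. It was 4.96, 4.79 and 5.08 in MZ Control and 4.98, 5.72 and 5.12 in MZ CKO. Mouse 1514 gave the highest value in both cell types, and control mouse 1507 gave the lowest in both.

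**Figure D3:**
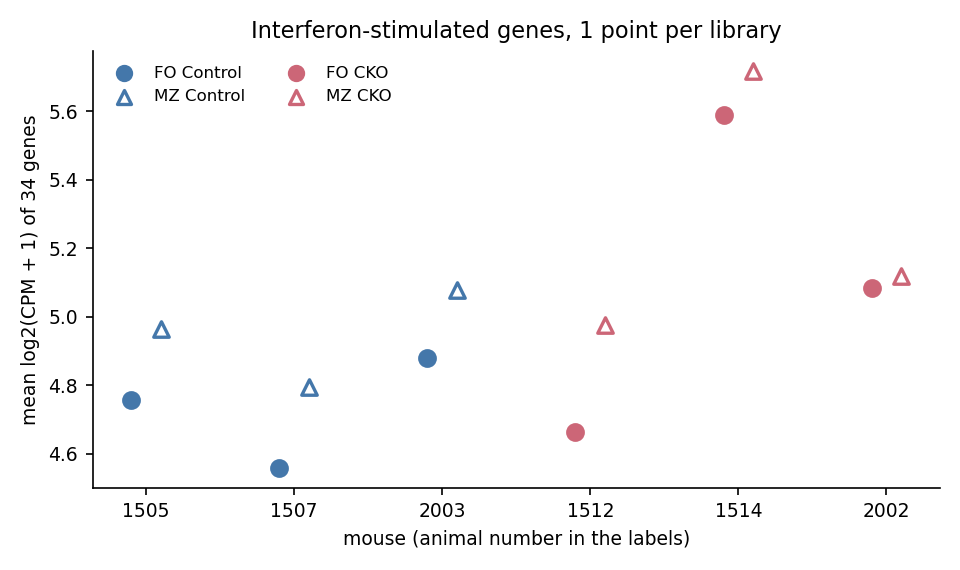
Mean log2(CPM + 1) of the 34 interferon-stimulated genes in each library (y axis) by mouse (x axis). Circles are FO and triangles MZ libraries, blue is control and red is CKO. The libraries of mouse 1514 are highest at 5.59 and 5.72, and in each mouse the MZ point lies above the FO point.

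Other cell types differed between the libraries as well. All 10 neutrophil markers had a fold change above 0 in CKO against control libraries of both cell types, without any passing the test, and no marker was at 0 throughout. Their summed level was 82.2 to 204 CPM in FO controls, 127 to 409 CPM in FO CKO, 52.4 to 148 CPM in MZ Control and 72.5 to 247 CPM in MZ CKO libraries, and mouse 1514 held the highest sum of each cell type. The 10 macrophage and monocyte markers summed to 249.3 to 499 CPM in FO controls, 323 to 584 CPM in FO CKO, 198 to 385 CPM in MZ Control and 239 to 378 CPM in MZ CKO libraries, with mouse 1514 highest in FO and control mouse 1507 highest in MZ. The 8 erythroid and platelet markers summed to 5.81 to 200 CPM in FO controls, 17.6 to 254 CPM in FO CKO, 5.46 to 167 CPM in MZ Control and 16.4 to 217 CPM in MZ CKO, again highest in mouse 1514. The 6 NK cell markers summed to 58.9 to 98.1 CPM in FO controls and 80.5 to 106.5 CPM in FO CKO, highest in mouse 1514. In MZ their sums were 56.7 to 90 CPM in control and 63.3 to 78.05 CPM in CKO libraries, highest in control mouse 1507. Markers of some other cells lay mostly on the other side. All 8 T cell markers had a fold change below 0 in FO B cells and 6 of 8 in MZ, with sums of 341 to 397 CPM in FO Control, 241 to 351 CPM in FO CKO, 198 to 290 CPM in MZ Control and 168 to 266 CPM in MZ CKO libraries, lowest in mouse 2002 in both. Of the 6 markers of conventional dendritic cells 4 were below 0 in FO and 6 in MZ, with sums of 53.2 to 69.9, 49.4 to 74.9, 45.3 to 56.6 and 36.3 to 53.4 CPM in the same order of groups. The 6 markers of plasmacytoid dendritic cells, the main producers of type I interferon, were below 0 for 4 in each cell type, with sums of 163 to 190, 170 to 195, 266 to 275 and 256 to 297 CPM. Tcf4 made up most of these sums, with 5173 counts in FO Control replicate 1 and 9279 in MZ Control replicate 1. Siglech had 224 and 258 counts in the same libraries, so the sums mainly follow Tcf4. Siglech was at 9.62 CPM in FO Control against 5.78 CPM in FO CKO, and at 8.01 against 4.14 CPM in MZ. Bst2 went the other way, at 20.53 against 23.81 CPM in FO and 18.25 against 20.84 CPM in MZ. None of these markers passed, and Bst2 belongs both to this list and to the 34 genes. Control mouse 1507 ranked second for neutrophil markers in both cell types (204 and 148 CPM). It had the lowest value of 14 of the 34 genes in FO and 13 in MZ B cells, against 15% and 12.6% of all genes tested. CKO mouse 1512 had the lowest value of 16 genes in FO and 13 in MZ, against 12.1% and 20.2% of all genes. The part of these cells in the differences was not tested.

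Among the transcription factors, Irf7, which amplifies the interferon response, stood at 75.1, 63.3 and 79.5 CPM in FO controls and 57.6, 132 and 101 CPM in FO CKO. In MZ it was at 61.9, 54.4 and 70.8 CPM in control and 45.9, 100.2 and 56.4 CPM in CKO mice. CKO values lay on both sides of the controls (per mouse log2 0.30, SE 0.33). Irf9 and Stat2, the DNA-binding and activating partners of the ISRE complex, differed little, by log2 0.09 (SE 0.12) and 0.03 (SE 0.08). Irf7 overlaps Phrf1 on the other strand and Irf9 overlaps Rnf31, so a part of their counts is uncertain, and Oasl1, Dhx58, Eif2ak2 and Cxcl10 overlap weakly expressed genes.

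In the ISG15 system, Usp18, which removes ISG15 from proteins and dampens the receptor, had 21.1, 17.5 and 23.4 CPM in FO controls and 18.3, 35.0 and 25.5 CPM in FO CKO. Its MZ values were 21.1, 18.1 and 23.7 CPM in control and 16.8, 31.3 and 26.2 CPM in CKO libraries. Isg15, the ubiquitin-like protein itself, had 5.89, 4.56 and 5.93 CPM in FO controls and 3.89, 9.42 and 6.16 CPM in FO CKO, and 14.6, 11.6 and 16.3 against 12.3, 19.0 and 12.7 CPM in MZ. Both genes overlapped between genotypes, with the highest value in mouse 1514 and the lowest in mouse 1512 or 1507. The log2 fold changes per mouse were 0.31 (SE 0.26) for Usp18 and 0.13 (SE 0.23) for Isg15.

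Of the sensors, Ifih1, which encodes the double-stranded RNA helicase MDA5, was at 11.7, 11.5 and 16.1 CPM in FO controls and 11.0, 24.8 and 14.9 CPM in FO CKO. In MZ it was at 15.8, 15.6 and 18.7 CPM in control and 16.4, 27.8 and 18.8 CPM in CKO libraries. The groups overlapped in both (per mouse log2 0.36, SE 0.27). Ddx58, which encodes RIG-I, was one of the most even genes, with 178 ± 18.8 CPM in FO Control against 180 ± 15.2 CPM in FO CKO. In MZ B cells all 3 Ddx58 values of CKO mice (174, 196 and 174 CPM) exceeded those of controls (157, 163 and 172 CPM), a difference of log2 0.15 (SE 0.08). Dhx58 and the Z-nucleic acid sensor gene Zbp1 had per mouse log2 fold changes of 0.18 (SE 0.22) and 0.25 (SE 0.20).

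The 2-5A synthetase family, whose enzymes make short 2-5A chains in response to double-stranded RNA, had the highest median of the groups with more than 1 gene. Its 5 genes had a median log2 fold change of 0.66 in FO, 0.73 in MZ and 0.64 per mouse, all 5 above 0 in each and none passing. Oas1a stood at 10.8, 7.65 and 11.3 CPM in FO controls and 13.9, 31.7 and 23.4 CPM in FO CKO. In MZ it stood at 15.9, 13.1 and 15.8 CPM in control and 22.6, 38.8 and 29.5 CPM in CKO libraries. Every CKO mouse was above every control mouse in both cell types, mouse 1512 included, in which most of the 34 genes lay below the control mean. The log2 fold change was 1.21 (SE 0.35, adjusted p = 0.9995) in FO, 1.03 (SE 0.19, adjusted p = 0.321) in MZ and 1.11 (SE 0.27, adjusted p = 0.9995) per mouse in edgeR. The exact two-sided permutation p was 0.1 in each, the smallest that 3 against 3 samples can give. In MZ B cells the call depended on the procedure, with an adjusted p of 0.0290 without MZ CKO replicate 1 (edgeR) and 2.65e-06 in DESeq2. Oas1a has close copies in the same cluster, between which reads may be shared.

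The other members of the family followed mouse 1514 more closely. Oas3 was at 23.9, 17.5 and 27.7 CPM in FO controls, 19.4, 54.1 and 32.1 CPM in FO CKO, 13.7, 10.4 and 14.0 CPM in MZ Control and 13.0, 39.5 and 16.8 CPM in MZ CKO libraries. Oasl2 was at 15.4, 10.1 and 14.8 CPM in FO controls, 11.2, 29.3 and 20 CPM in FO CKO, 7.35, 6.24 and 7.48 CPM in MZ Control and 7.09, 18.1 and 9.72 CPM in MZ CKO libraries. In both genes mouse 1512 lay among the controls. Oas2 and Oasl1 had per mouse log2 fold changes of 0.57 (SE 0.45) and 0.57 (SE 0.30).

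Among the inhibitors of translation, Ifit1, which binds RNA lacking the host cap methylation, was at 6.56, 6.86 and 8.91 CPM in FO controls and 5.40, 16.6 and 8.54 CPM in FO CKO. In MZ it was at 9.92, 8.59 and 11.7 CPM in control and 8.53, 21.2 and 9.44 CPM in CKO libraries. Only mouse 1514 exceeded the controls in both cell types. Ifit3, which stabilises IFIT1, was at 19.0, 17.6 and 24.9 CPM in FO controls and 14.9, 49.9 and 33.1 CPM in FO CKO, and at 33.8, 32.2 and 51.0 against 29.7, 71.1 and 38.2 CPM in MZ. Ifit3 lies beside its near-identical copy Ifit3b, so the split of reads between them is uncertain. Ifit2 and Eif2ak2, the gene of the kinase PKR, had per mouse log2 fold changes of 0.28 (SE 0.32) and 0.14 (SE 0.15).

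Rsad2, which encodes viperin, represents the other antiviral effectors. It was at 7.08, 8.03 and 7.74 CPM in FO controls and 5.49, 20.1 and 8.62 CPM in FO CKO, and at 12.8, 11.0 and 12.3 against 9.67, 25.7 and 13.4 CPM in MZ. Mouse 1512 lay below and mouse 2002 just above the controls in both cell types. Mx1 and Mx2, listed by RefSeq as transcribed pseudogenes in this genome, differed by log2 0.25 (SE 0.43) and 0.23 (SE 0.46) per mouse. Xaf1, a gene of cell death, was highest in mouse 2002, at 81.9 CPM in FO and 81.0 CPM in MZ, and lowest in mouse 1512, at 22.6 and 26.3 CPM. Bst2 (tetherin), Rtp4 and Trim30a had per mouse log2 fold changes of 0.21 (SE 0.17), 0.37 (SE 0.33) and 0.14 (SE 0.12).

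Gbp2b and Ifi44 were set apart by a pattern of their own. Gbp2b (chromosome 3, 142594847 to 142619179 on GRCm38), an interferon-inducible GTPase gene, was at 0.297, 0.312 and 0.195 CPM in FO controls and 7.15, 11.1 and 0.444 CPM in FO CKO libraries. Its MZ values were 0.499, 0.295 and 0.703 CPM in control and 17.0, 16.2 and 0.633 CPM in CKO libraries. Mice 1512 and 1514 were thus high in both cell types, while mouse 2002 was close to the controls. These values rest on 8 to 25 counts in each control library and 17 and 23 counts in those of mouse 2002, against 318 to 689 counts in mice 1512 and 1514. Ifi44 (chromosome 3, 151730922 to 151749960), an interferon-induced gene with antiviral effects, was at 0.297, 0.528 and 0.855 CPM in FO controls and 4.14, 18.4 and 1.25 CPM in FO CKO. The MZ values were 0.473, 0.295 and 0.844 CPM in control and 5.24, 15.5 and 0.798 CPM in CKO libraries. The same 2 mice were high for Ifi44. Mouse 2002 carried the deletion by its label, and its Cdca7 level was the lowest of the 3 CKO mice, at 0.548 CPM in FO and 1.87 CPM in MZ. The high values of Gbp2b and Ifi44 describe 2 of 3 CKO mice, and what sets these 2 apart from mouse 2002 was not tested. The animal numbers of mice 1512 and 1514 lie close to those of control mice 1505 and 1507, in which both genes were low. The labels do not say whether the numbers mark litters. The log2 fold changes were 4.52 (SE 1.34) for Gbp2b and 3.82 (SE 1.26) for Ifi44 in FO, and 4.51 (SE 1.42) and 3.76 (SE 1.28) in MZ, none of them past the test in edgeR (adjusted p from 0.9995 to 1). Without CKO replicate 3, mouse 2002, Gbp2b passed in edgeR in FO (adjusted p = 0.000239), in MZ (adjusted p = 4.68e-05) and per mouse (adjusted p = 2.97e-05). Of all genes, 0.17%, 0.188% and 0.175% passed in these fits. They keep only the 2 CKO mice in which Gbp2b was seen to be high, so they do not describe the CKO group.

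The neighbours of Gbp2b varied far less. Gbp2 and Gbp3 lie on either side of it on chromosome 3, and both belong to the same family, whose GTPases attack the vacuoles of intracellular pathogens. Gbp2 was at 26.3, 28.9 and 34.5 CPM in FO controls and 31.3, 39.7 and 30.4 CPM in FO CKO, and at 45.5, 51.1 and 47.4 against 66.2, 65.2 and 50.3 CPM in MZ. In MZ B cells Gbp2 was thus highest in mice 1512 and 1514, with mouse 2002 among the controls, the same order of mice as for Gbp2b at a much smaller size (log2 0.34, SE 0.10, unadjusted p = 0.00770, adjusted p = 1 in edgeR). Gbp3 was at 59.5, 64.0 and 68.9 CPM in FO controls and 60.3, 68.3 and 86.4 CPM in FO CKO, and at 119.9, 121 and 121 against 126, 113 and 139 CPM in MZ. Irgm1, a GTPase of the same defence, was at 113, 99.8 and 117 CPM in FO controls and 97.2, 143 and 121 CPM in FO CKO, and at 136, 126 and 149 against 116, 163 and 141 CPM in MZ. Over all genes tested, the 12 libraries of Gbp2b correlated most closely with those of Naip1 on chromosome 13 (Pearson r = 0.969 of log2 CPM + 1) and Ifi44l on chromosome 3 (r = 0.955), and those of Ifi44 with Cfap74 on chromosome 4 (r = 0.984) and Ifi44l (r = 0.977). These genes were chosen after their values were seen, and the libraries come in pairs from 6 mice.

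**Figure D4:**
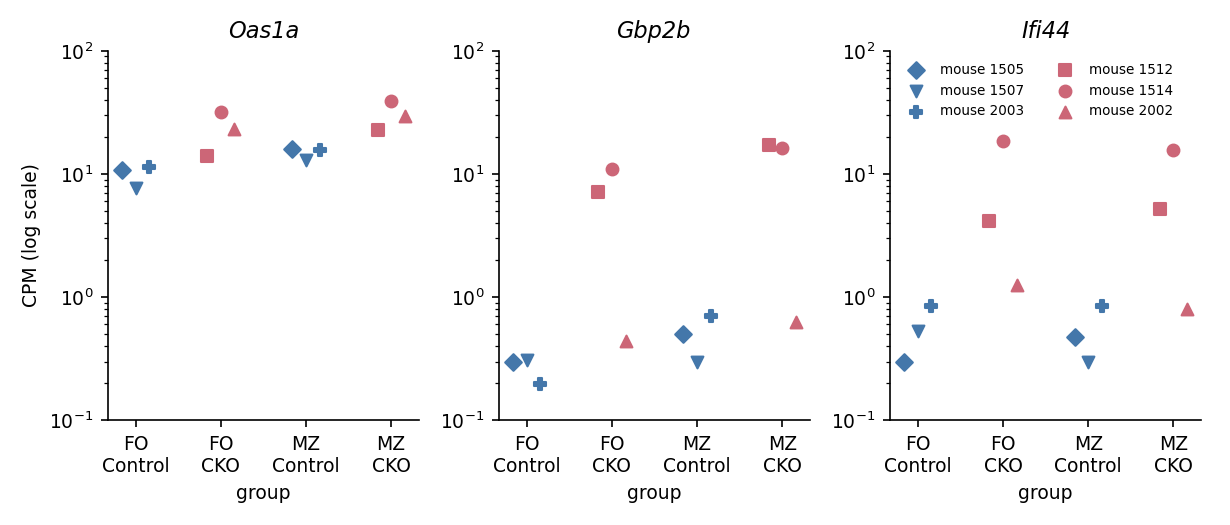
CPM of Oas1a, Gbp2b and Ifi44 in each library (y axis, log scale) by group (x axis), blue for control and red for CKO, with 1 symbol per mouse. All 3 CKO mice lie above the controls for Oas1a, while for Gbp2b and Ifi44 mice 1512 and 1514 lie far above and mouse 2002 lies close to the controls.

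The PARP and DTX3L genes, whose products modify proteins with ADP-ribose and ubiquitin, had the smallest median log2 of the role groups in FO and per mouse (0.03 and 0.06, all 3 overlapping). Parp14 was at 233, 193 and 250 CPM in FO controls and 209, 289 and 218 CPM in FO CKO, and at 187, 182 and 201 against 187, 256 and 193 CPM in MZ. The groups overlapped, with mouse 1514 highest. Parp9 and Dtx3l, which share a promoter region and overlap on opposite strands, had per mouse log2 fold changes of 0.05 (SE 0.09) and 0.06 (SE 0.11). Cxcl10 had a log2 fold change of 0.78 (SE 0.44) per mouse from the few counts given above.

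Whether the effect of genotype differed between MZ and FO B cells was tested as an interaction over all 12 libraries. No gene of the 34 passed in edgeR, and 0% of the 18546 genes tested passed. None of the 34 had an unadjusted p under 0.05, against 1.28% of all genes. DESeq2 and limma-voom also called none of the 34. With the mouse as a block none of the 34 passed either, against 0.0216% of all genes. In that fit 4 of the 34 had an unadjusted p under 0.05, against 5.22% of all genes. These were Mx1, Oas2, Mx2 and Irf7, all with the smaller genotype difference in MZ. The largest of these was Mx1, at log2 -0.46 (SE 0.10, adjusted p = 0.143, edgeR).

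The second question was how the 2 B cell types differ in these genes. In control mice, 9 of the 34 genes passed in edgeR, a share close to the 27.9% of all 17830 genes tested, 7 of them higher in MZ (14.9% of all genes) and 2 lower (13%). The median log2 difference was 0.23 against 0.01 over all genes. Higher in MZ were Isg15 (log2 1.37, SE 0.16, adjusted p = 7.09e-05), Ifit3 (0.92, SE 0.23, adjusted p = 0.0351), Gbp3 (0.91, SE 0.07, adjusted p = 2.50e-06), Gbp2 (0.68, SE 0.10, adjusted p = 0.000312), Rsad2 (0.66, SE 0.12, adjusted p = 0.00161), Oas1a (0.59, SE 0.16, adjusted p = 0.0157) and Irgm1 (0.32, SE 0.08, adjusted p = 0.0133). Lower in MZ were Oasl2 (-0.94, SE 0.17, adjusted p = 0.00141) and Oas3 (-0.86, SE 0.19, adjusted p = 0.0106). The 2-5A synthetase family was thus split, with Oas1a up and Oas3 and Oasl2 down. Isg15 showed the widest step, its 3 MZ Control values lying between 11.6 and 16.3 CPM and its FO Control values between 4.56 and 5.93 CPM.

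Some of these calls rested on single libraries. Ifit3 did not pass without FO Control replicate 1 (adjusted p = 0.139), FO Control replicate 2 (0.115) or MZ Control replicate 1 (0.0575), Irgm1 without FO Control replicate 2 (0.0618) or MZ Control replicate 3 (0.0744), and Oas1a without MZ Control replicate 1 (0.0687) or MZ Control replicate 3 (0.0629). The count rose to 16 of 34 without MZ Control replicate 2, where 27.5% of all genes passed. In CKO mice 2 genes passed, Gbp2 (log2 0.86, SE 0.14, adjusted p = 0.00469) and Gbp3 (0.83, SE 0.14, adjusted p = 0.00767), both higher in MZ, where 18.3% of 17712 genes passed, 10.5% higher and 7.78% lower. Isg15 had a similar size there (log2 1.19, SE 0.35) with an adjusted p of 0.0632.

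Comparison within the mouse removed the wide spread between mice. Deviations of FO and MZ libraries of the same animal correlated at 0.549 to 0.777 over genes, so the mouse was also fitted as a block. In control mice 25 of the 34 genes then passed, against 43.8% of all genes, 20 of them higher in MZ (22.4% of all) and 5 lower (21.3%: Oasl2, Oas3, Parp14, Irf7 and Ifit2). In CKO mice 19 passed, against 35.8% of all genes, 16 of them higher (19.2%) and 3 lower (16.6%: Oasl2, Oas3 and Irf7). In this fit Mx1 was higher by log2 0.88 (SE 0.07, adjusted p = 2.89e-23) in control and 0.43 (SE 0.08, adjusted p = 4.90e-05) in CKO mice, and Oas2 by 0.56 (SE 0.09, adjusted p = 7.90e-09) and 0.26 (SE 0.08, adjusted p = 0.0146). These p values rest on 3 mice per genotype and on variance estimates that borrow from all genes, so their small size does not stand for more mice. Neither Mx1 nor Oas2 was called in the edgeR fit of all 6 libraries without the block in either genotype. In control mice limma-voom called Mx1 and DESeq2 called Oas2. Counted mouse by mouse, 17 of the 34 genes were higher in MZ than in FO in 6 of 6 mice, among them Isg15, Gbp2, Gbp3, Ifit3, Mx1, Mx2 and Oas1a, where 22.1% of all genes were. The 4 genes Irf7, Oas3, Oasl2 and Parp14 were lower in 6 of 6, where again 22.1% of all genes were (4102 of 18546 genes in each direction). The difference in log2(CPM + 1) ranged from 0.94 to 1.45 for Isg15 and from -0.98 to -0.60 for Oasl2 over the 6 mice.

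**Figure D5:**
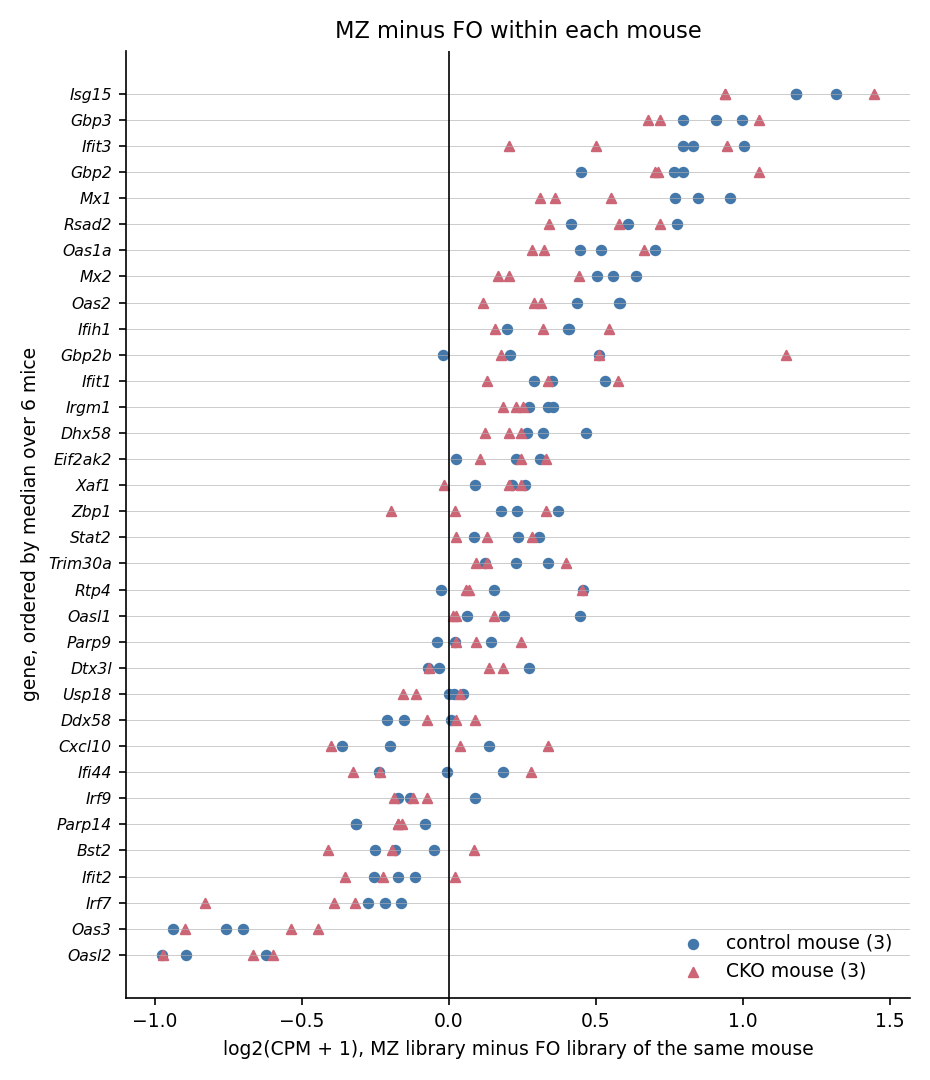
Difference in log2(CPM + 1) between the MZ and FO library of the same mouse (x axis) for each gene, ordered by the median over 6 mice. Circles are control and triangles CKO mice. Isg15 lies between 0.94 and 1.45 in all 6 mice, and Oas3, Oasl2, Irf7 and Parp14 lie below 0 in all 6.

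The rest of the pathway was read from lists of its other parts. Of the 21 interferon genes, 1 (Ifng) passed the low-count filter in the FO and in the MZ comparison. Over all 12 libraries Ifnb1 had 1 count, the numbered Ifna genes had 0 to 3 counts each, Ifnab had 7, Ifnz had 24 and Ifnk, which passed the filter in the sums per mouse, had 61. Ifng had 259 counts and was at 0.715 ± 0.030 CPM in FO controls and 0.714 ± 0.106 CPM in FO CKO libraries. In the genotype comparisons no gene of any of these lists passed in FO, MZ or the sums per mouse. Of the 6 receptor genes, the smallest p per mouse belonged to Ifnlr1, a subunit of the type III interferon receptor, at log2 0.41 (SE 0.15, unadjusted p = 0.0272, adjusted p = 0.9995 in edgeR). In FO B cells it was at 3.22, 3.36 and 2.61 CPM in control and 3.53, 3.81 and 4.34 CPM in CKO libraries. Among the kinase and STAT genes the smallest p per mouse belonged to Stat4 (log2 -0.10, SE 0.06) and Tyk2 (0.05, SE 0.05), and Irf4, a regulatory factor of B cell differentiation, was at -0.04 (SE 0.06). Of 7 negative regulators Socs3 had the smallest p (log2 -0.18, SE 0.09), of 13 sensing genes Ikbke (-0.12, SE 0.06), and of 7 tested genes of nucleic acid metabolism Samhd1 (0.16, SE 0.06). A further 61 interferon-stimulated genes outside the 34 had a median log2 of 0.15 in FO (51 above 0), 0.11 in MZ (53 above 0) and 0.14 per mouse (55 above 0), with 8, 1 and 7 at an unadjusted p under 0.05 (4.03%, 2.9% and 3.59% of all genes) and none passing. Tdrd7 (0.18, SE 0.06) and Ifi203 (0.21, SE 0.07) had the smallest p of these per mouse. The 26 tested genes associated with interferon gamma had medians of 0.06, 0.10 and 0.07.

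Between the B cell types of control mice the counts of the lists are read against the 14.9% of all genes that were higher in MZ and the 13% that were lower. Of the 6 receptor genes 5 were lower in MZ and none higher, with Ifnlr1 at log2 -1.73 (SE 0.21, adjusted p = 8.62e-05). Ifnar1, which encodes a subunit of the type I interferon receptor, was at -0.84 (SE 0.06, adjusted p = 2.37e-06). Ifnar1 was at 296, 275 and 275 CPM in FO controls and 158, 159 and 156 CPM in MZ Control libraries. Ifnar2, the gene of the other subunit, was at 60.9 ± 4.60 CPM in FO controls and 57.6 ± 2.1 CPM in MZ Control libraries. Of the 6 kinases and STATs 4 were lower (Stat4 at -0.90, SE 0.09, Jak1 at -0.55, SE 0.08, Jak2 at -0.38, SE 0.09, and Stat3 at -0.23, SE 0.07) and none higher. In the opposite direction, 8 of 13 genes that sense nucleic acids and relay the signal were higher in MZ and 4 lower. Tlr3, the endosomal receptor for double-stranded RNA, rose by log2 2.93 (SE 0.19, adjusted p = 2.76e-06), from 3.21 ± 0.12 to 24.6 ± 6.67 CPM. Its adaptor gene Ticam1 (0.90, SE 0.09), Ikbke (0.58, SE 0.07) and Mavs (0.49, SE 0.07) were also higher. Irf4 was higher (0.44, SE 0.06) and Irf2 (-0.73, SE 0.08) and Irf8 (-0.47, SE 0.07) lower among 7 interferon regulatory factors. Samhd1, which degrades nucleotides, was lower (-0.94, SE 0.07), as was Rnaseh2c (-0.23, SE 0.07).

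The other 61 interferon-stimulated genes went both ways between the cell types, with 13 higher and 14 lower in MZ of control mice. Those with the smallest p were Plac8 (log2 2.32, SE 0.10), Ifit1bl1 (-0.89, SE 0.09), Tor3a (0.54, SE 0.06) and Tdrd7 (-0.64, SE 0.08). Of the 26 genes associated with interferon gamma 9 were higher and 3 lower, led by Cd274, the gene of PD-L1 (1.18, SE 0.08), Ciita, the activator of MHC class II genes (-0.84, SE 0.08), Gbp5 (0.67, SE 0.09) and Icam1 (0.51, SE 0.07). Of 7 negative regulators 1 was lower, Pias1 (-0.18, SE 0.06). In CKO mice, where 10.5% of all genes were higher and 7.78% lower, the counts were 0 higher and 2 lower receptors, 0 and 2 kinases and STATs, 1 and 2 regulatory factors, 7 and 2 sensing genes, 6 and 4 of the other 61 and 6 and 1 of the gamma list, with Socs3 (0.58, SE 0.09) and Ptpn11 (0.25, SE 0.08) higher among negative regulators. Whether these differences vary with genotype was tested only gene by gene in the interaction. No gene passed there without the block, and 4 of all 18546 genes tested (0.0216%) passed with the mouse as a block.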

How the data were processed

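Per the labels' protocols, libraries were made with the Illumina TruSeq kit from 0.1 ug of total RNA. The deposited values are raw read counts for each Ensembl gene, and the submitters' processing notes name TopHat, HTSeq and DESeq2 without versions on GRCm38. The annotation release and strand setting are not given in the sources used here. Of all listed reads, 43.2 to 50.4% named no gene and were left out.

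From these counts, symbols and exon lengths were taken from GENCODE M21. In R 4.3.3, edgeR 4.0.16 was run with filterByExpr, TMM scaling and robust quasi-likelihood F tests, two-sided, adjusted by Benjamini-Hochberg over all genes tested and called under 0.05. SE was the size of the log2 fold change over the square root of F. CPM used 1 TMM scaling over 12 libraries, and 1 was added before log2. Alternatives were RLE scaling, no filter, no robust estimates, DESeq2 1.42.0, limma-voom (limma 3.58.1), a block, single replicates left out and a fit of mice 1505, 1507, 1512 and 1514 only. The tests were checked on simulated data. No 2 libraries of the same group agreed within sampling noise, and libraries of different groups were not compared in this way. Replicates carry different animal numbers, and the labels do not say whether animals shared a litter or preparation.

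The 34 genes and all lists were chosen with earlier results of these data known. Full values are given for genes that passed anywhere, the smallest p per mouse in each role group, Oas1a, and the highest and lowest per length. From other lists, up to 4 that passed, or otherwise the 2 with the smallest p per mouse, are named. A few genes that this rule would name are not reported here. In FO, same-numbered replicates of both genotypes correlated at 0.131 to 0.4, and in MZ at -0.116, 0.43 and 0.415. The main genotype tests had no block, and the replicate number was a block only in an alternative fit.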

Additional observations from a re-analysis of the deposited data

How the results depend on the processing

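With the replicate number as a block, 0 of 34 genes passed in each genotype comparison, as without it. Of all genes, 0.141% passed in FO, 0.323% in MZ and 0.112% in the sums per mouse. With the mouse as the replicate block, 25 passed between MZ and FO B cells of control mice, 19 in CKO mice and 0 in the interaction. The shares of all genes were 43.8%, 35.8% and 0.0216%. In FO CKO against FO Control, 1 gene passed in DESeq2 (0.25% of all genes) and 1 with mice 1505, 1507, 1512 and 1514 only (0.145%). In MZ CKO against MZ Control these counts were 1 and 1 (0.201% and 0.189% of all genes), and 2 without the filter (Oas1a and Oasl2, 0.311% of all genes). In the sums per mouse they were 2 and 1 (0.195% and 0.182% of all genes). Between MZ and FO Control 18 passed without the filter, where 18% of all 30651 genes tested passed. Leaving out single replicates gave 0 to 1 gene in FO, MZ and the sums, where 0.0279% to 0.188% of all genes passed. It gave 7 to 16 between cell types in control mice (19.6% to 27.5% of all genes) and 2 to 3 in CKO mice (10.5% to 15.9%). In the interaction it gave 0 (0% of all genes). Without both libraries of mouse 1514, a check chosen after seeing the data, 3 genes (Isg15, Gbp2 and Gbp3) passed between cell types in CKO mice. Of all genes 14.8% passed in that fit.

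Over single replicates left out, log2 fold changes reached or crossed 0. Without mouse 1514, 13 of 34 genes were below 0 in FO, 14 in MZ and 15 per mouse. Ranges are given for those of the 18 genes described in full. In FO these were Isg15 (-0.12 to 0.52), Rsad2 (-0.11 to 0.92), Irgm1 (-0.011 to 0.27), Ifih1 (-0.022 to 0.61), Ifit1 (-0.10 to 0.76) and Parp14 (-0.081 to 0.17). In MZ they were Isg15 (-0.17 to 0.18), Ifit3 (-0.19 to 0.51), Rsad2 (-0.057 to 0.70), Irgm1 (-0.082 to 0.15), Irf7 (-0.28 to 0.34) and Ifit1 (-0.15 to 0.62). Per mouse they were Isg15 (-0.16 to 0.29), Ifit3 (-0.031 to 0.72), Rsad2 (-0.086 to 0.80), Irgm1 (-0.053 to 0.21), Irf7 (-0.041 to 0.54), Ifit1 (-0.13 to 0.69), Parp14 (-0.042 to 0.21) and Gbp3 (0 to 0.15). The lowest values came from leaving out mouse 1514, except Gbp3, where it was mouse 2002. Few counts limit the precision for Cxcl10 in all libraries and for Gbp2b and Ifi44 in most. The cause of these shifts was not tested.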
